A study of Drosophila melanogaster with 16 samples.

Results

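Transcripts of 10 neuropeptide genes were followed in RNA from whole fly heads: NPF, sNPF, Tk, Dsk, Crz, Pdf, Dh44, Nplp1, Nplp2 and Nplp3. They were chosen by name as peptide precursor genes of the Drosophila head. The rule holds no measured value, but the choice was made with earlier results of these data known. All 10 were among the 12286 genes of the deposited table. The heads came from Drosophila melanogaster aged 10 days after eclosion in which glia, neurons, both or neither made wild-type human α-synuclein, the main protein of Lewy bodies in Parkinson's disease. Every fly, the control flies included, carried both drivers, SybQF2 for neurons and RepoGAL4 for glia. Glia flies added UAS-Syn (3 libraries), neuron flies QUAS-Syn (3 libraries) and both flies the 2 transgenes together (4 libraries), and control flies had the drivers alone (3 libraries). A library pooled the heads of 6 flies, 3 of each sex, and belonged to a numbered batch that is also the replicate number. The labels list 16 samples, and glia 3, neuron 4 and control 4 were not analysed here. The cell type in the labels is not the source of the RNA, which is the whole head. It reads glia for control samples too, so groups were taken from titles and genotypes. The drivers act in all glia or all neurons, not in peptide neurons alone. The human transcript itself was not analysed here.

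Neuropeptides are made as longer precursor proteins that prohormone convertases cut and other enzymes trim and amidate, and they are released from dense-core vesicles to act on G protein-coupled receptors. In the fly brain most of these genes are active in small sets of neurons, so their transcripts report on few cells among many. NPF, sNPF and tachykinins act in feeding, reward and olfaction, drosulfakinins in satiety, corazonin in stress and metabolism, PDF in the circadian clock, and DH44 in water balance and rest-activity output. In RNA from bulk tissue, fewer cells of a type and less RNA per cell cannot be told apart.

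All 10 genes were read in every library. Libraries held 2808960 to 4767799 reads in genes, and the reads behind a single value ran from 20 for Crz in its lowest library to 11860 for Nplp2 in its highest. Values are the authors' normalized counts, with their added 1 taken off, and folds are log2 differences of log2(normalized count + 1), which slightly understate the changes of low genes. In glia 2 the 16 pan-neuronal markers summed to 20631 normalized counts, against 34050 to 53228 in the other libraries. In control 1 the 10 male accessory gland genes summed to 4346, the highest of all libraries. Control 3 followed at 2936, and the next, glia 2, had 613. Results are therefore also given without glia 2 and control 1, with control 3 kept. The p-values measure the spread between pools of flies.

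In control heads the genes spanned a wide range of transcript levels per length. Per kb of exon, Nplp2 averaged 13323 normalized counts. It ranked 13th when set against the 12147 genes of the table whose IDs are in the annotation. Nplp2 is not one of these, since its ID has changed and its length was found by symbol. The Nplp2 libraries lay apart from those of every other gene described here. Nplp3 followed at 631 and was apart from the next, Dsk, at 243. Pdf (193), Nplp1 (172) and sNPF (148) came next, and neighbours from Dsk to sNPF overlapped in their control libraries. NPF had 85.8 and lay below sNPF without overlap. Tk (64.7), Crz (53.1) and Dh44 (42.8), which ranked lowest, each overlapped with the gene above. Gene positions are those of BDGP6 in Ensembl release 115. NPF lies on 3R from 16609220 to 16611325, Crz on 3R from 14314854 to 14315716, Pdf on 3R from 26455462 to 26456141 and Nplp3 on 3L from 16318024 to 16318690, and no annotated gene overlaps these 4. Tk overlaps Ect3 and Dh44 overlaps Fst on the opposite strand, without shared exons.

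Most of these genes had higher values where neurons carried α-synuclein. In the comparison of libraries with and without the neuronal transgene, which averages neuron against control and both against glia, Nplp3, Pdf, Crz and NPF rose, and all 10 genes had a positive fold, as did 42.3% of all genes. Those that rose were 4 of 10, where 13.4% of all 12181 tested genes passed the same test in either direction and 5.74% rose (limma, Benjamini-Hochberg adjusted p under 0.05). The median fold of the 10 genes was 0.43 on the log2 scale, and that of all tested genes was -0.07. At an unadjusted p under 0.05, 8 of the 10 were higher, and 12.8% of all genes were. No gene of the 10 had every library with the transgene above every library without it, and 2.69% of all genes did. The pan-neuronal markers rose in the same comparison (12 of 16, with a median fold of 0.55), and when libraries were centred on these markers the neuropeptide median became -0.14 and none of the 10 rose. The 8 glial markers also had positive folds (median 0.29), of which wrapper rose (0.52, limma adjusted p = 0.0341), and repo, which defines glia, had 218 to 270 normalized counts with the neuronal transgene, against 102 to 208 without it. The part of the neuronal or glial share of the RNA in the neuropeptide folds was not tested.

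**Figure D1:**
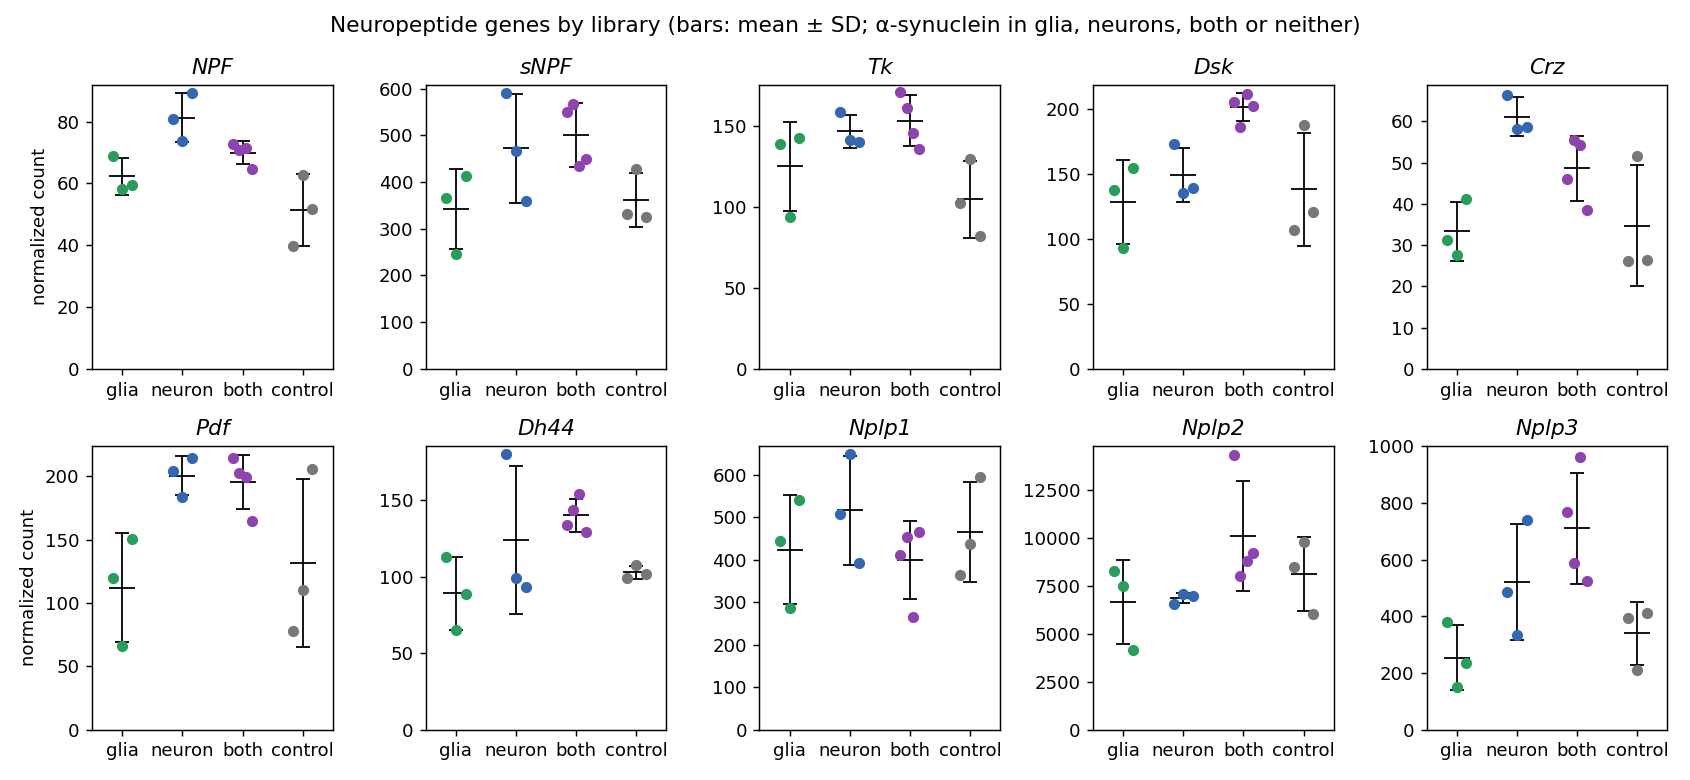
Normalized counts (vertical axis, from 0) of the 10 genes in each library, with points for libraries and bars for the mean ± SD of glia (n = 3), neuron (n = 3), both (n = 4) and control (n = 3). For NPF, sNPF and Nplp3 6 of the 7 libraries with the neuronal transgene lie above every library without it, while Nplp1 shows no such order. The share of all genes placed so was not counted.

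NPF encodes neuropeptide F, the fly relative of vertebrate neuropeptide Y. It had 80.7, 73.7 and 89.3 normalized counts in neuron libraries and 72.8, 70.9, 71.4 and 64.7 in both libraries. Without the neuronal transgene it had 68.9, 58.1 and 59.6 in glia libraries and 39.7, 62.9 and 51.7 in control libraries. Of the 7 libraries with the neuronal transgene 6 lay above all 6 without it, and both 4 was the exception. How many of all genes were placed so was not counted. The neuronal transgene effect was 0.42 (SE 0.12, limma adjusted p = 0.0365), and the gene was higher in 6 of 6 pairs of libraries from the same batch. These pairs reuse the libraries of the test, and the share of all genes higher in every pair was not counted. With batch as a block the adjusted p was 0.0701. The call was also lost without glia 2 (adjusted p = 0.0559), neuron 1 (0.0854), neuron 3 (0.0836), both 1 (0.066), both 2 (0.0656), both 3 (0.0642) or control 1 (0.0808), with folds from 0.33 to 0.50 over all 13 libraries left out in turn.

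sNPF, the short neuropeptide F precursor, and Tk, the tachykinin precursor, had positive folds of similar size that did not pass. sNPF had 590.6, 466.6 and 358.4 normalized counts in neuron libraries and 550.5, 567.1, 434.5 and 448.8 in both libraries. Glia libraries had 366.7, 246.7 and 412.0 and control libraries had 332.3, 428.9 and 326.0. Neuron 3 was the one library with the neuronal transgene inside the range of the libraries without it. The effect was 0.47 (SE 0.15, limma adjusted p = 0.0533), higher in 6 of 6 same-batch pairs, and with batch as a block it passed (adjusted p = 0.046). It also passed without glia 4 (adjusted p = 0.0284) or neuron 3 (0.0426). Tk ranged from 136.1 to 171.2 with a median of 145.8 in the 7 libraries with the transgene, against 82.2 to 143.1 with a median of 116.4 in the 6 without it. Its effect was 0.41 (SE 0.13, limma adjusted p = 0.0548), higher in 5 of 6 same-batch pairs, and it passed without glia 1 (adjusted p = 0.045), glia 4 (0.0363) or control 2 (0.0374). Over the 10 genes, sNPF and Tk had the most similar profiles across libraries, with a root mean square difference of 0.187 on the log2 scale.

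Dsk encodes drosulfakinins, the fly relatives of cholecystokinin. It had 172.9, 135.5 and 139.3 normalized counts in neuron libraries and 205.6, 186.2, 212.0 and 202.7 in both libraries, against 137.8, 92.8 and 155.0 in glia libraries and 106.6, 187.6 and 120.6 in control libraries. Both libraries lay above all glia and neuron libraries and, save control 2, above the controls, while neuron libraries lay within the range of the controls. The neuronal transgene effect was 0.41 (SE 0.15, limma adjusted p = 0.0812), higher in 5 of 6 same-batch pairs. It passed without glia 4 (adjusted p = 0.0443) or control 2 (0.0319).

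Crz encodes corazonin, a relative of the gonadotropin-releasing hormone family. It had 66.5, 58.2 and 58.6 normalized counts in neuron libraries and 46.0, 55.5, 54.3 and 38.6 in both libraries. It had 31.2, 27.5 and 41.2 in glia libraries and 26.0, 51.7 and 26.5 in control libraries. Neuron libraries were all above every library without the neuronal transgene, while both 1 and both 4 lay below control 2. The effect was 0.70 (SE 0.18, limma adjusted p = 0.0289), higher in 5 of 6 same-batch pairs. The call was lost without neuron 1 (adjusted p = 0.0779), neuron 3 (0.0534), both 2 (0.0578), both 3 (0.0537) or control 1 (0.0723), and kept in the other 8 of 13 such fits, by the smallest margin without both 1 (adjusted p = 0.049994). Folds ran from 0.62 to 0.86.

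Pdf encodes pigment-dispersing factor, the peptide signal of the ventral lateral clock neurons. It had 204.0, 183.7 and 214.2 normalized counts in neuron libraries and 214.6, 202.4, 199.4 and 165.0 in both libraries. It had 119.6, 66.3 and 150.7 in glia libraries and 78.1, 110.5 and 205.4 in control libraries. Control 3 reached the level of the libraries with the neuronal transgene, and the other 5 without it lay below all 7 with it. The effect was 0.79 (SE 0.22, limma adjusted p = 0.036), higher in 6 of 6 same-batch pairs, and adjusted p = 0.0533 with batch as a block. The call was lost without glia 2 (adjusted p = 0.0608), neuron 1 (0.085), neuron 2 (0.0532), neuron 3 (0.0745), both 1 (0.0657), both 2 (0.0646), both 3 (0.059), control 1 (0.0845) or control 2 (0.0709), with folds from 0.63 to 0.98. Of 8 core clock genes tested, 1 rose in the same comparison, where 5.74% of all genes rose. It was the blue-light receptor gene cry (0.36, limma adjusted p = 0.0405). The median of the 8 was 0.14.

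Dh44 encodes the diuretic hormone related to vertebrate corticotropin-releasing factor. It had 180.0, 99.1 and 93.2 normalized counts in neuron libraries and 134.1, 143.5, 154.0 and 129.3 in both libraries, against 113.1, 65.3 and 88.9 in glia libraries and 99.2, 107.5 and 102.1 in control libraries. All 4 both libraries were above the 6 without the neuronal transgene, but only neuron 1 of the neuron libraries was. The effect was 0.44 (SE 0.16, limma adjusted p = 0.085), higher in 4 of 6 same-batch pairs. It passed without glia 1 (adjusted p = 0.0423).

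Of the 3 neuropeptide-like precursor genes Nplp3 rose, and Nplp1 and Nplp2 did not pass. Nplp3 had 486.9, 335.6 and 741.7 normalized counts in neuron libraries and 768.9, 586.8, 961.2 and 525.0 in both libraries, against 378.4, 149.9 and 234.2 in glia libraries and 393.1, 211.9 and 413.5 in control libraries. Its lowest and highest libraries, glia 2 and both 3, were 6.41-fold apart, the widest spread of the 10 genes, where Tk had the narrowest at 2.08-fold. The neuronal transgene effect was 1.07 (SE 0.26, limma adjusted p = 0.0233), higher in 6 of 6 same-batch pairs. The call was lost without neuron 1 (adjusted p = 0.0599) or neuron 3 (0.0519) and kept in the other 11 of 13 such fits.

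Nplp1, whose precursor yields several peptides, had 508.1, 649.4 and 392.9 normalized counts in neuron libraries and 411.3, 453.5, 265.6 and 465.2 in both libraries. It had 444.8, 287.5 and 539.9 in glia libraries and 363.3, 437.0 and 593.8 in control libraries. The groups overlapped throughout, and the effect was 0.04 (SE 0.19, 95% interval -0.37 to 0.45, limma adjusted p = 0.909). Nplp1 was higher in 3 of 6 same-batch pairs. Relative to the pan-neuronal markers it fell, by 0.53 (limma adjusted p = 0.0208). On that scale 58.6% of all genes fell and the median of all genes was -0.64. In both against glia it also fell on that scale, by 0.82 (adjusted p = 0.0198), as did 49.5% of all genes. Nplp2 had 6555 to 7061 normalized counts in neuron libraries and 8003 to 14324 in both libraries, against 4171 to 8298 in glia libraries and 6044 to 9826 in control libraries. Its effect was 0.21 (SE 0.19, 95% interval -0.21 to 0.62, limma adjusted p = 0.488), higher in 4 of 6 same-batch pairs. Nplp2 was highest in both 1 and lowest in glia 4, the libraries where the 7 fat body markers had their highest (331864) and lowest (64829) summed normalized counts. The part of fat body RNA in the Nplp2 values was not tested.

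**Figure D2:**
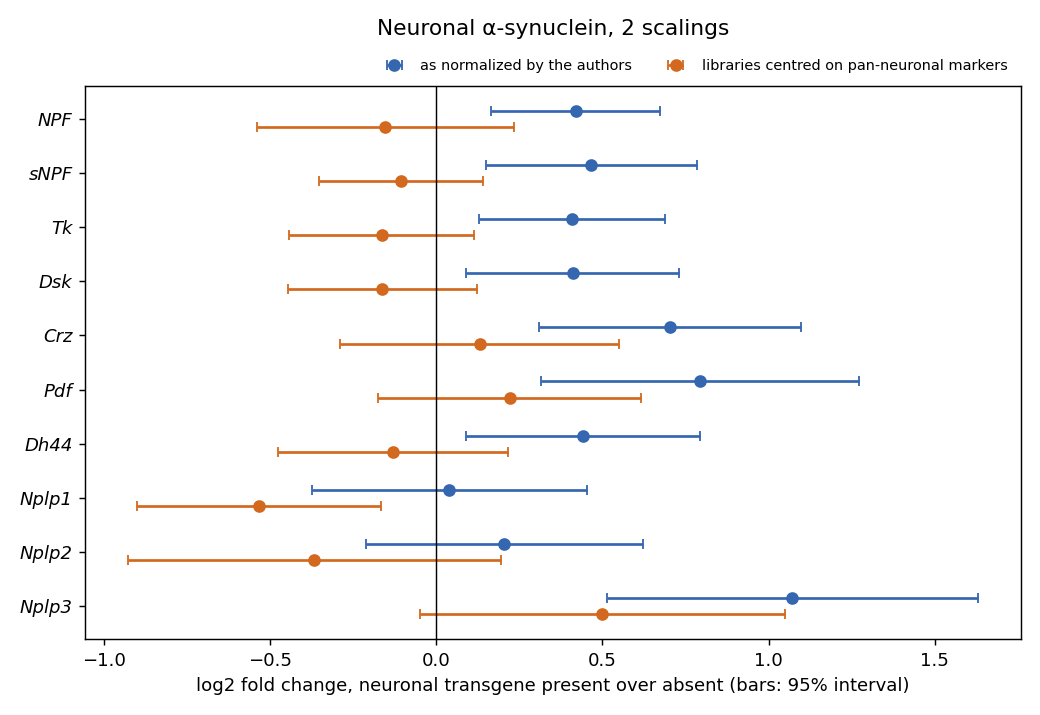
Log2 fold change of each gene for the neuronal transgene present over absent (points, with 95% intervals), from the authors' normalization and after centring each library on the pan-neuronal markers. NPF, sNPF, Tk, Dsk, Dh44, Nplp1 and Nplp2 turn negative after that centring, and Nplp3, Pdf and Crz stay positive without passing the test.

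After centring on the pan-neuronal markers, Nplp3 (0.50, limma adjusted p = 0.101), Pdf (0.22) and Crz (0.13) had positive folds and the other 7 had negative ones. That centring moves the folds of all genes by the same amount, so their order stays as before. All 10 folds thus stayed above the median of all genes (-0.64 on that scale), the lowest being Nplp1 (-0.53). The 16 pan-neuronal markers summed to 44418 to 53228 normalized counts in libraries with the neuronal transgene, against 20631 to 44158 in those without it. Gut and male accessory gland RNA ran the other way. The 13 midgut enterocyte markers summed to 357 to 9312 with the transgene, against 3736 to 21152 without it, and 7 of the 13 were at 0 in some library. The 10 accessory gland markers summed to 28.2 to 57.6 with the transgene, against 27.3 to 4346 without it, and 8 of the 10 were at 0 in some library. Their part in the neuropeptide folds was not tested. NPF and Tk are also made by enteroendocrine cells of the gut. Of 7 enteroendocrine markers tested 1 rose with the neuronal transgene, where 5.74% of all genes rose. It was pros, which neurons share (0.51, limma adjusted p = 0.0448). Poxn had at most 7.66 normalized counts and was at 0 in control 3.

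**Figure D3:**
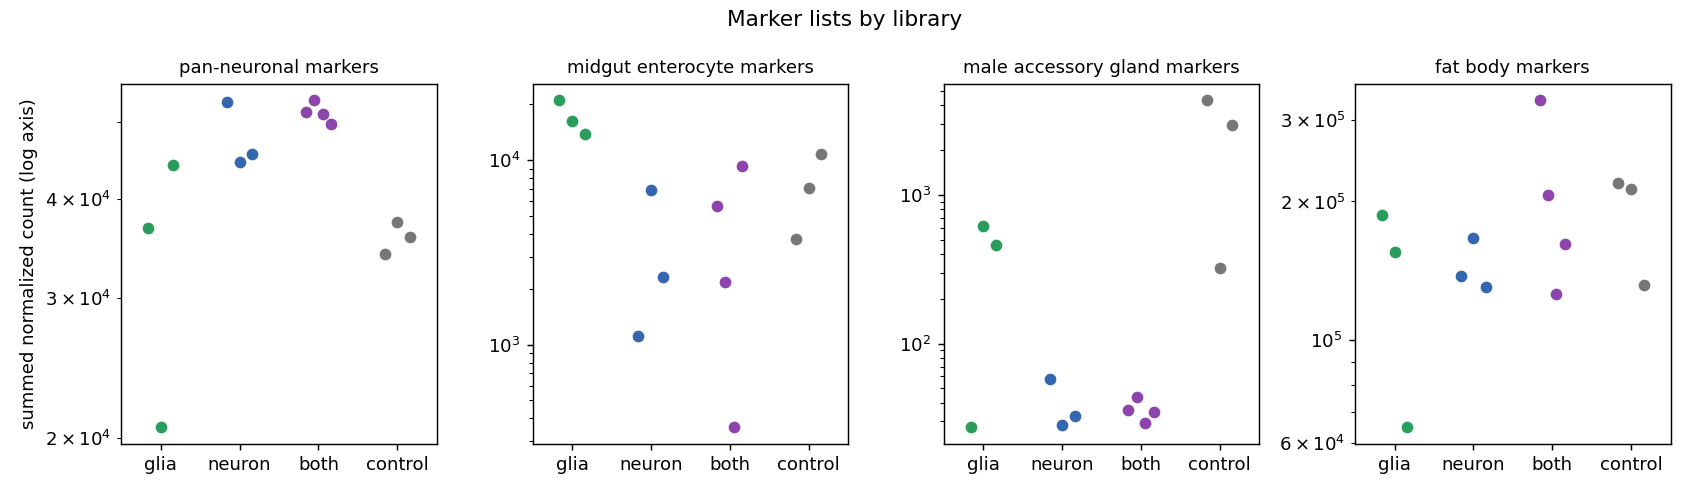
Summed normalized counts (log axes) of pan-neuronal (16 genes), midgut enterocyte (13), male accessory gland (10) and fat body (7) markers in each library. Every library with the neuronal transgene lies above every library without it for the pan-neuronal sum, and glia 2 is lowest.

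Without glia 2 and control 1 together, none of the 10 genes passed for the neuronal transgene, while 9 of the 10 folds stayed positive. The 4 genes that had passed then had folds of 0.98 for Nplp3 (limma adjusted p = 0.0552), 0.56 for Crz (0.103), 0.47 for Pdf (0.0978) and 0.31 for NPF (0.0934). Nplp1 was at -0.17.

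The single-group comparisons share control or glia libraries and are given side by side. Neuron against control had no gene past the adjusted test, and 0% of all genes passed it. Unadjusted p was under 0.05, for higher values, in 4 of the 10, as in 4.07% of all genes. These were NPF (0.67, SE 0.17, limma adjusted p = 0.172), Crz (0.87, SE 0.27, adjusted p = 0.282), Pdf (0.72, SE 0.32, adjusted p = 0.396) and Tk (0.50, SE 0.19, adjusted p = 0.367). NPF, Crz and Tk had every neuron library above every control library, and 9.97% of all genes did. Crz passed when control 2 was left out (adjusted p = 0.04), and none passed with any other single library left out. Nplp2 was the one gene with a negative fold (-0.21), and 42.6% of all genes had positive ones. After centring on pan-neuronal markers 5 of the 10 folds were positive, with a median of 0.03 where that of all genes was -0.46, and 0 of the 10 had an unadjusted p under 0.05 in either direction (18.6% of all genes).

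Both against control likewise had no member past the adjusted test, where 1.01% of all genes passed. Nplp3 had the largest fold (1.08, SE 0.35, limma adjusted p = 0.145), followed by Pdf (0.68), Dsk (0.58) and Tk (0.56, SE 0.18, adjusted p = 0.135). NPF, sNPF, Nplp3, Tk and Dh44 did not overlap between the groups and were higher in both libraries, as were 9.57% of all genes. Unadjusted p was under 0.05 for higher values in 6 of the 10 and in 6.76% of all genes. Pdf passed without control 3 (adjusted p = 0.0467) and Tk passed without glia 2 (adjusted p = 0.0376). Glia 2 is in neither group, so the Tk fold stayed at 0.56 and only the shared spread and the adjustment changed. Without control 1 the count at an unadjusted p under 0.05 was 2. After centring on pan-neuronal markers it was 1, Nplp1 with a negative fold (-0.74, adjusted p = 0.062), where 35.9% of all genes were past that p in either direction. On that scale 5 of the 10 folds were positive, with a median of -0.02 where that of all genes was -0.57.

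Both against glia asks what neuronal α-synuclein adds to flies that already express it in glia. Nplp3 rose by 1.54 (SE 0.35, limma adjusted p = 0.0218), the one call among the 10, where 7.86% of all genes passed and 3.11% rose. It was 1.02 to 1.96 higher in each of the 3 batches that hold both groups. The call was lost without glia 2 (1.21, adjusted p = 0.0924), both 1 (1.49, adjusted p = 0.0616) or both 3 (1.38, adjusted p = 0.0625). After centring on pan-neuronal markers the fold was 0.80 (adjusted p = 0.0678). Dsk (0.68, SE 0.20, adjusted p = 0.0595), Dh44 (0.68, SE 0.22, adjusted p = 0.076), Pdf (0.87, SE 0.30, adjusted p = 0.0915) and sNPF (0.57, SE 0.20, adjusted p = 0.0937) had both libraries all above glia libraries without passing. Leaving out 1 library let Dh44 pass without glia 1 (adjusted p = 0.0423) or neuron 1 (0.0336), Dsk without glia 4 (0.028) or control 2 (0.036), Pdf without glia 4 (0.0365) or control 3 (0.0479), and sNPF without glia 4 (0.0435). Neuron 1, control 2 and control 3 are in neither group, so leaving them out changed the shared spread and the adjustment but not the folds. Together with Nplp3, the genes Dsk, Dh44, Pdf and sNPF made 5 of 10 without overlap, and 10.1% of all genes were so placed. At an unadjusted p under 0.05, 6 of the 10 were higher, those 5 and Nplp2, and 12.8% of all genes were. After centring on pan-neuronal markers 2 of the 10 folds were positive, with a median of -0.14 where that of all genes was -0.82. Pdf was then at 0.12, Dsk at -0.07, Dh44 at -0.06 and sNPF at -0.17.

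For glial α-synuclein none of the 10 genes passed. Glia against control had 0 calls (0.772% of all genes passed), 0 at an unadjusted p under 0.05 (10.1% of all genes), and folds from -0.46 for Nplp3 (95% interval -1.27 to 0.36) to 0.29 for NPF (95% interval -0.08 to 0.66). The libraries of the 2 groups overlapped for all 10 genes, while 6.81% of all genes were higher and 5.11% lower in glia libraries without overlap. After centring on pan-neuronal markers 7 of the 10 folds were positive, against 2 before it. Their median was then 0.09, where that of all genes was 0.19. None passed on that scale, where Tk (0.47) had a limma unadjusted p of 0.026 and an adjusted p of 0.62. The glial transgene effect averaged over both backgrounds also gave 0 calls (0.189% of all genes) and 0 at an unadjusted p under 0.05 (7.77% of all genes), with folds from -0.26 (Nplp1) to 0.17 (Dsk). Its 95% intervals were -0.21 to 0.29 for NPF and -0.55 to 0.57 for Nplp3. Intervals of this width do not show that the groups were alike.

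Both against neuron, which asks what the glial transgene adds to the neuronal one, gave 0 calls (0% of all genes) and 0 at an unadjusted p under 0.05 (4.24% of all genes). NPF and Crz were lower in both libraries without overlap (3.34% of all genes were), by -0.21 (SE 0.16) and -0.34 (SE 0.25). Nplp2 and Dsk were higher without overlap (3.31% of all genes were), by 0.52 (SE 0.26) and 0.44 (SE 0.20). Glia against neuron had 0 calls (3.24% of all genes passed), with all 10 folds negative where 55.6% of all genes had positive ones, and with NPF, Crz and Pdf lower without overlap (9.9% of all genes were). Crz (-0.87, SE 0.27, limma adjusted p = 0.0937) and Pdf (-0.91, SE 0.32, adjusted p = 0.135) had the smallest p-values together with Nplp3 (-1.06, SE 0.38, adjusted p = 0.135). Crz passed without glia 4 (adjusted p = 0.0448) or control 2 (adjusted p = 0.0476). Control 2 is in neither group, so leaving it out did not change the fold. After centring on pan-neuronal markers 7 of the 10 folds were positive, with a median of 0.21 where that of all genes was 0.68.

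Whether the neuronal effect differed with and without glial α-synuclein was tested as an interaction, and no member passed (0.0821% of all genes did). Nplp2 had an interaction of 0.84 (SE 0.38, unadjusted p = 0.0484, limma adjusted p = 0.671), the one gene of the 10 at an unadjusted p under 0.05 (7.3% of all genes), and its group means were 6870 ± 275 in neuron (SD, n = 3), 10101 ± 2863 in both (SD, n = 4), 6658 ± 2190 in glia (SD, n = 3) and 8127 ± 1920 in control (SD, n = 3). NPF had an interaction of -0.50 (SE 0.23, limma unadjusted p = 0.0527, adjusted p = 0.695) and Nplp3 one of 0.94 (SE 0.52, limma adjusted p = 0.77). The NPF fold was 0.67 for neuron against control and 0.17 for both against glia, and the difference between the 2 settings did not pass. After centring on pan-neuronal markers the NPF interaction was -0.84 (limma unadjusted p = 0.035, adjusted p = 0.786). That of Nplp2 was then 0.50 (limma unadjusted p = 0.355). The share of all genes at an unadjusted p under 0.05 on that scale was not counted.

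Genes that make, store and receive the peptides were examined for the same neuronal transgene effect, for which 5.74% of all genes rose. Of 10 receptor genes 2 rose, the sNPF receptor gene sNPF-R (0.48, SE 0.13, limma adjusted p = 0.0327) and the PDF receptor gene Pdfr (0.33, SE 0.08, limma adjusted p = 0.0275). The DH44 receptor gene Dh44-R1 had 54.6 to 66.6 normalized counts in libraries with the transgene, against 33.1 to 53.1 in those without it. These ranges did not overlap, and 2.69% of all genes were placed so. Dh44-R1 missed the threshold (0.40, limma adjusted p = 0.071). The corazonin receptor gene CrzR had a negative fold (-0.12, SE 0.15), while Crz itself rose. The receptor median was 0.42, close to the 0.43 of the 10 peptide genes, and after centring on pan-neuronal markers none of the 10 receptors had a positive fold and 2 fell, where 58.6% of all genes fell and their median was -0.64.

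Of 5 processing enzymes 3 rose: the prohormone convertase gene amon (0.49, limma adjusted p = 0.0351), the carboxypeptidase gene svr (0.24, adjusted p = 0.0455) and the amidating lyase gene Pal2 (0.53, adjusted p = 0.0358). Of 6 genes of dense-core vesicles and their release 3 rose: Rph, which codes for rabphilin (0.65, adjusted p = 0.0413), Cadps (0.48, adjusted p = 0.0469) and the synaptotagmin gene Sytalpha (0.46, adjusted p = 0.0236). The transcription factor gene dimm, which drives the peptidergic cell fate, had a fold of 0.52 (adjusted p = 0.37). Among 32 other neuropeptide genes 3 rose, Hug (0.77, adjusted p = 0.0362), Ilp2 (0.64, adjusted p = 0.0344) and Ms (0.48, adjusted p = 0.033), none fell, and 24 had a positive fold, where 5.74% of all genes rose and 42.3% had a positive fold. All adjusted p-values are limma's. The median of those 32 was 0.25, between that of the 10 genes described (0.43) and that of all genes (-0.07). After centring on pan-neuronal markers the 3 lists of enzymes, vesicle genes and other neuropeptides had medians of -0.33, -0.08 and -0.33. They stayed above the median of all genes, since that centring moves all folds alike. On that scale 2 of the 5 enzymes and 8 of the 32 neuropeptide genes fell, where 58.6% of all genes fell.

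**Figure D4:**
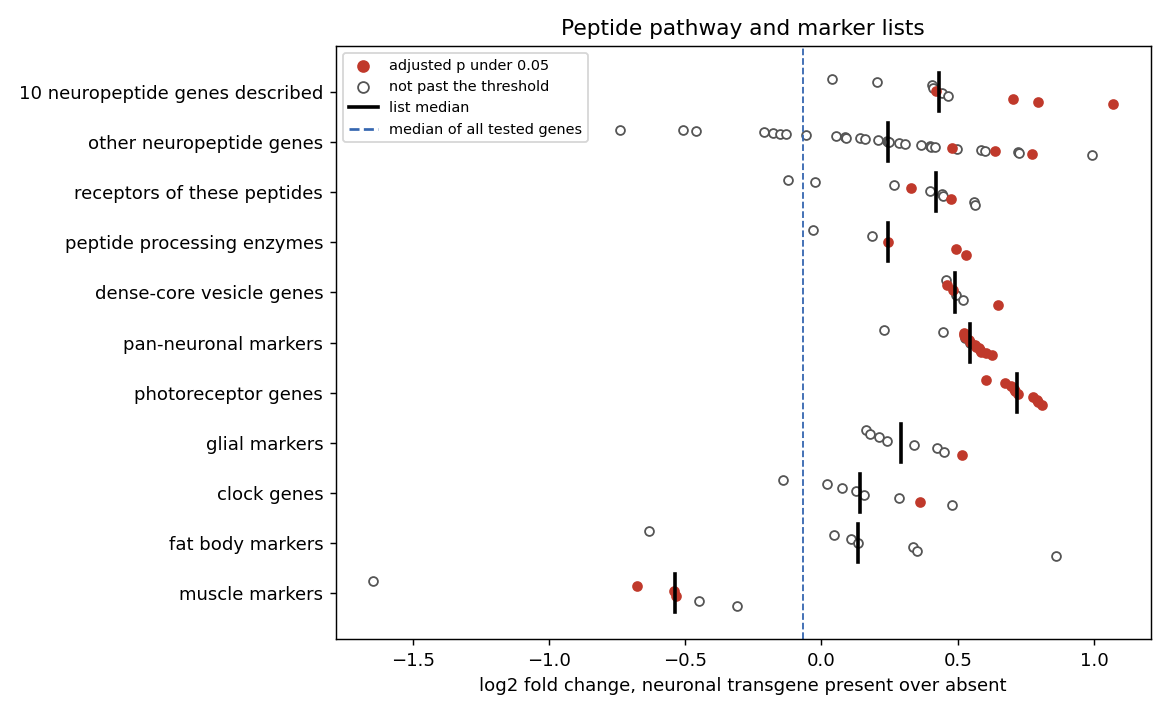
Log2 fold change for the neuronal transgene present over absent of each gene in the peptide pathway and marker lists (filled points passed limma's adjusted test, bars are list medians, the dashed line is the median of all genes at -0.07). The 10 neuropeptide genes sit beside the vesicle genes, the receptors and the pan-neuronal markers, and the 6 muscle markers lie on the negative side.

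For each gene with a mean of at least 50 normalized counts, the 3 genes of most similar profile over the 13 libraries were found by the root mean square difference of centred log2 values among 6707 candidates, as a description. sNPF had the closest neighbours, IA-2 (0.0854), which codes for a dense-core vesicle protein, amon (0.0933) and Tbh (0.0959), the enzyme of octopamine synthesis, where the median candidate was at 0.403. The nearest gene to Tk was the receptor gene Dh44-R1 (0.124). Nplp1 was nearest to salr (0.17), and the peptide gene AstA was the third nearest (0.197). Nplp3 was nearest to CG13077 (0.295), retinin (0.306), a gene of the corneal lens, and rdhB (0.323), a retinal pigment cell dehydrogenase gene, in a setting where the median candidate was at 0.771. Nplp2 was nearest to CG2233 (0.146), fon (0.147), a hemolymph clotting gene, and CG16712 (0.163). These points share libraries, depth and normalization. The 10 photoreceptor genes all rose with the neuronal transgene (median 0.72), where 5.74% of all genes rose. Their summed normalized counts were 117208 to 168736 with it, against 50632 to 101932 without it. The part of photoreceptor RNA in the Nplp3 values was not tested.

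**Figure D5:**
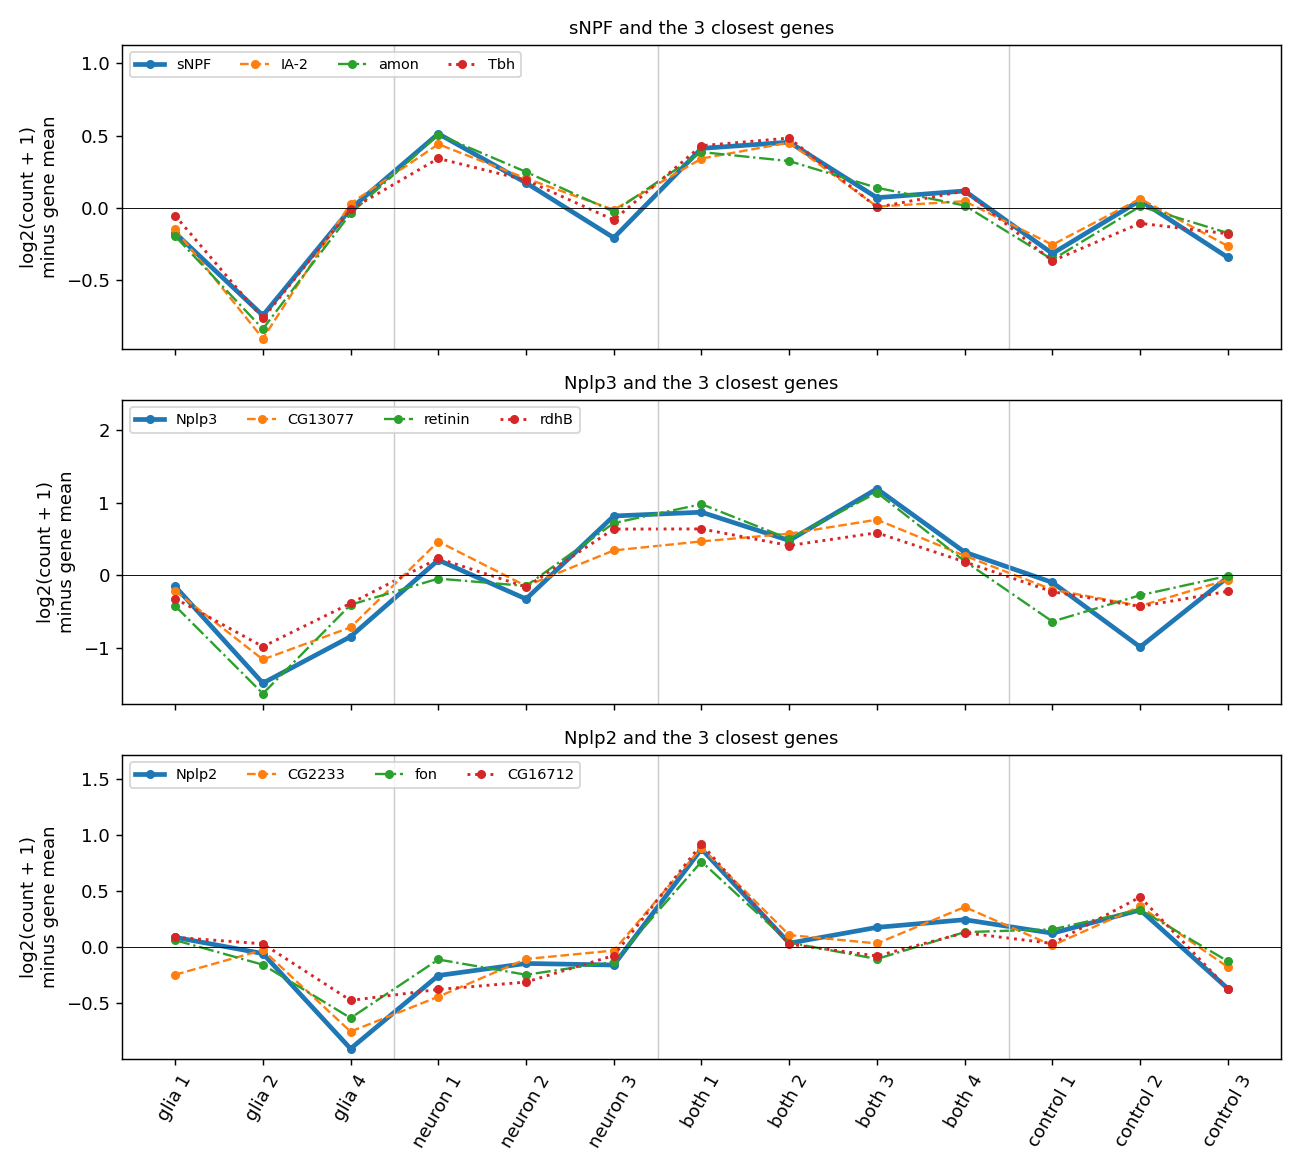
Log2(normalized count + 1) minus the gene's own mean over the 13 libraries (vertical axis) by library, for sNPF, Nplp3 and Nplp2 and the 3 closest genes of each. sNPF dips in glia 2 with IA-2, amon and Tbh, Nplp3 peaks in both 3 with retinin, and Nplp2 peaks in both 1 and dips in glia 4 with its neighbours.

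Among the other members, Pdf was nearest to CG13594 (0.213), CG11191 and CG43921, NPF to CG13604 (0.169), CG10654 and CG17754, Dh44 to CG43340 (0.159), CG6329 and the protein kinase C gene Pkc53E, and Dsk to CG44247 (0.155), the potassium channel gene Elk and beat-VII. None of the 10 was among the 3 nearest of another, and the least similar pair was Nplp1 and Nplp3, with a difference of 0.871. Crz fell below the level set for this description.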

How the data were processed

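RNA from whole heads was depleted of ribosomal RNA and sequenced as stranded paired-end libraries, per the labels' protocols. The tools DESeq2, featureCounts, Salmon, STAR, FastQC and MultiQC and the build BDGP6 are named in the submitters' processing notes, without versions, and the strand setting of the counting is not given in the sources used here. The deposited table holds normalized counts per gene, a signal scaled per library with 1 added, per the file headers and values; the 1 was removed. Dividing by the value of 1 read gave whole numbers in every library (within 0.01), from which the depths were taken, and every column of values mapped to a sample or a group mean.

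Tests covered the 12181 genes that reached a normalized count of 1 in 4 or more libraries. A linear model with 4 group means was fitted to log2(normalized count + 1) over all 13 libraries with limma 3.58.1 (R 4.3.3), with trended variance and Benjamini-Hochberg adjustment over all tested genes, and 9 contrasts were read from it. The code was tested on simulated data. The neuronal transgene effect is the mean of neuron minus control and both minus glia. Alternatives changed the pseudocount, the filter, the scaling, the model and the libraries used.

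The labels give the batch as the replicate number, so the numbers pair libraries by label. Over 16 same-batch pairs the correlation of deviations from the group means had a median of 0.07 (-0.37 to 0.17). Gene IDs were matched to Ensembl release 115, Nplp2 by its symbol since its ID has changed. The 10 genes and all gene lists were chosen with earlier results of these data known. All 10 genes were described, with up to 4 genes of each list by smallest p (receptors, enzymes and vesicle genes without that limit) and the 3 genes closest to each member.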

Additional observations from a re-analysis of the deposited data

How the results depend on the processing

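Of 639 refits of single gene folds under other settings, 572 kept direction and side of the threshold, 37 lost a call, 15 gained one and 15 changed sign. These include folds that had not passed as reported. The neuronal transgene calls stayed past the threshold in 20 of 24 alternatives for Nplp3, 17 for Crz, 14 for NPF and 12 for Pdf. The Nplp3 call in both against glia stayed in 20 of 25. For the neuronal transgene the reported count of 4 genes was 1 after centring on pan-neuronal markers (Nplp1, lower), 0 without control 1 and glia 2 together, and 0 to 7 with 1 library left out. With batch as a replicate block it was 3, with NPF and Pdf lost and sNPF gained, and the block changed no other call among the 10 genes; it was 4 with voom on whole reads, 5 with TMM scaling and 6 with library totals. Both against glia, reported with 1, gave 0 without control 1 and glia 2 and 0 to 4 with 1 library left out. Both against control, neuron against control and glia against neuron gave 0 to 1 with 1 library left out, and both against control gave 1 (Dh44) when fitted on its own groups. Centring on pan-neuronal markers turned the neuronal transgene fold of NPF to -0.15, sNPF to -0.11, Tk to -0.17, Dh44 to -0.13, Dsk to -0.16, Nplp1 to -0.53 and Nplp2 to -0.37, and both against control to -0.0615 for NPF and -0.0559 for sNPF. Nplp1 ran from -0.0885 to 0.138 with 1 library left out and was -0.17 without control 1 and glia 2, which also turned Nplp3 in glia against control to 0.00792. In glia against neuron that centring left 7 of 10 folds positive, against 0 as reported. The cause of these turns was not tested.

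The planned edgeR and DESeq2 fits on the recovered whole reads were not run, and voom was the one fit made on those reads. With 20 to 75 reads, Crz has the largest counting error. In the annotation, genes that overlap those described lie on the opposite strand and share no exon with them. The strand setting of the counting is not given in the sources used here.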
